A study of Mus musculus with 8 samples.

Results

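The cell cycle genes described here are a list of 42 genes. Most carry cells through division, from the cyclins that start the cycle to the motors and checkpoint proteins of mitosis. Among the 42 are also 3 inhibitors of cell cycle kinases, which hold division back. The list was drawn from general knowledge of the cycle. A gene was counted as measured where a probe set on the array named it and no other gene, and the probe set with the highest mean level over all arrays stood for it. By this rule 41 of the 42 genes were measured, among 18193 genes named in this way on the array. All 41 were bright enough to be tested, among 13627 genes tested in all. No probe set used here named Ccnb1 alone. The 41 genes had 102 such probe sets, of which 90 were bright enough to be tested.

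The arrays measured RNA of mouse telencephalon from animals with mutations of Dlx1 and Dlx2, neighbouring homeobox genes of the ventral forebrain. There were 4 groups of 2 arrays each: basal ganglia of -/- animals (BG -/-), basal ganglia of +/- animals (BG +/-), cortex of -/- animals (Ctx -/-) and cortex of +/- animals (Ctx +/-). The 2 arrays of a group carry the replicate numbers 2 and 3, and values below are given in that order. All groups carry at least 1 mutant copy, and no +/+ tissue was analysed here. Age, strain, sex and the making of the alleles are not given in the labels, nor whether the arrays came from separate animals, so the p-values cover only array-to-array spread, which could be technical.

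A dividing cell passes through phases. In G1, D-type cyclins with CDK4 or CDK6 and then cyclin E with CDK2 release the E2F factors, which switch on genes for DNA synthesis. In S phase the MCM helicase, loaded onto DNA by CDC6 and CDT1, opens the double helix for copying. In G2 and mitosis cyclins A and B with CDK1, the Aurora and Polo kinases and the spindle checkpoint separate the chromosomes, and CDC20 and its ubiquitin ligase end the phase. In the embryonic telencephalon the genes that drive division are used by the progenitors of the ventricular and subventricular zones and are shut off as neurons are born. In bulk tissue fewer cells of a type and less RNA per cell cannot be told apart. The 41 measured genes fell into 9 of G1, 14 of S phase, 15 of G2 and mitosis (called M genes below) and 3 CDK inhibitors. The S phase group was drawn up as genes of helicase loading (licensing), replication and nucleotide supply. It is thus not limited to genes that act within S phase.

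The deleted genes followed the labels. The Dlx1 signal was 3.67 and 15.5 in BG -/- against 1232 and 1237 in BG +/-, and 2.42 and 1.74 in Ctx -/- against 138 and 137 in Ctx +/-. The ventral progenitor gene Gsx2 lay at 192 to 235 in the 4 BG arrays and at 6.88 to 27.2 in the 4 Ctx arrays. A source label of the samples also names blood and adrenal medulla, unlike the tissue given for each sample. Of the 5 adrenal medulla markers measured, Th lay at 2.9 to 52.2, Dbh at 27.2 to 96.8 and Pnmt at 32.9 to 97.2 over the 8 arrays, and the granins Chga and Chgb, which neurons also make, at 162 to 261 and 267 to 454. None passed the test between genotypes in either region. Against Ctx, Pnmt was higher in BG +/- (adjusted p = 0.0372) and Chgb in BG -/- (adjusted p = 0.0443). All arrays had been scaled to 1 mean level before deposit. Across probe sets, Pearson correlations were 0.973 to 0.982 within groups and 0.930 to 0.977 between groups.

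In BG, M genes moved in opposite directions between the genotypes. Cenpf, Kif11, Top2a and Bub1 rose in BG -/-, while Cdk1 and Cdc20 fell, together with the S phase genes Cdt1 and Mcm5. These 8 of 41 genes passed the test (limma, adjusted p below 0.05 over all 31526 probe sets tested), against 7.82% of all genes tested in this comparison. By direction, 4 of 41 rose against 4.76% of all genes, and 4 fell against 3.05%. No G1 gene and no inhibitor passed. At an unadjusted p below 0.05 there were 26 of the 41, against 26.9% of all genes. The calls were made with 2 arrays a group: without any 1 of the 4 BG arrays none of the 41 passed, without either Ctx -/- array 2 did, and without either Ctx +/- array 11 did. After centring of the arrays on their medians 3 genes rose and 9 fell; the median change over all probe sets was then -0.10, against 0.01 without centring.

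**Figure D1:**
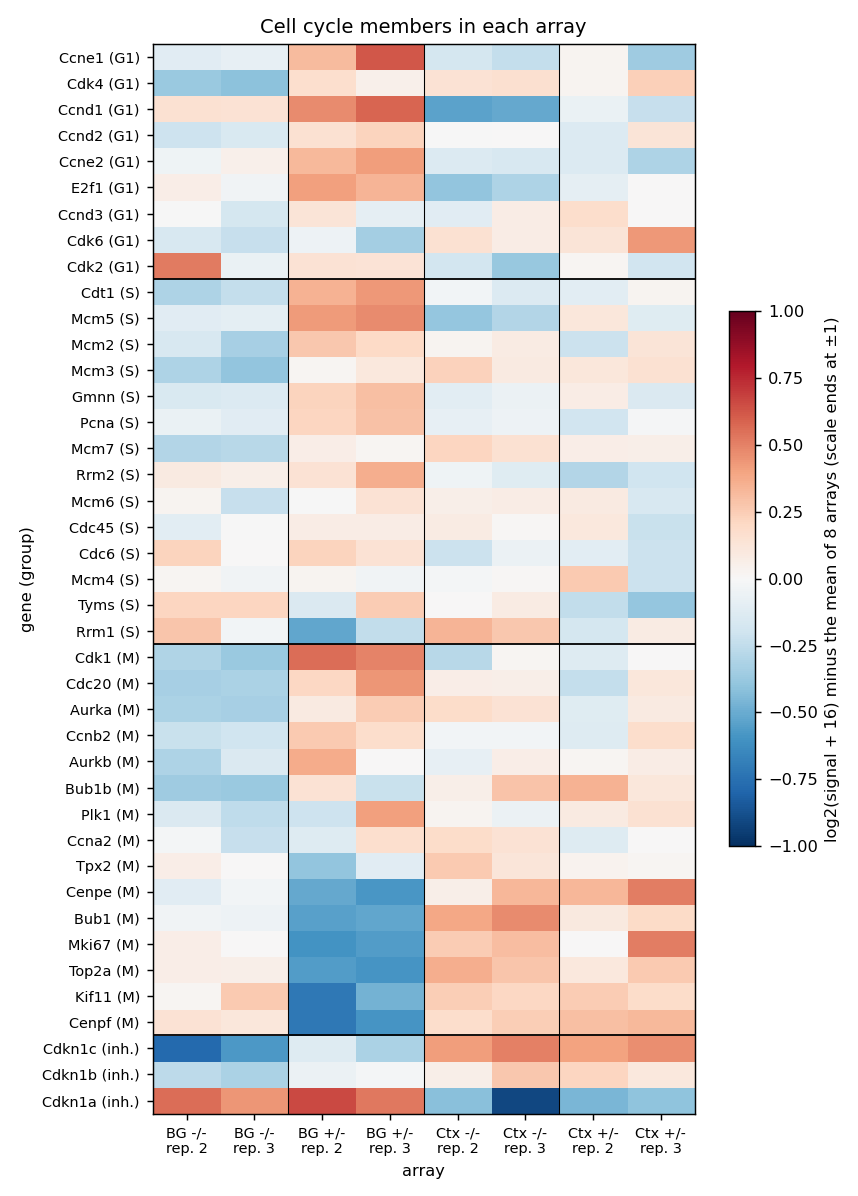
Level of each of the 41 genes (rows, grouped by phase) in each of the 8 arrays (columns), as log2(signal + 16) minus the gene's mean over the arrays. Many G1 and S genes are red and a block of M genes from Cenpe to Cenpf is blue in the 2 BG +/- arrays, which lay above the other 6 arrays for 13 genes and below them for 8.

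The 4 M genes that rose encode a kinetochore protein, a kinesin, a topoisomerase and a checkpoint kinase. Cenpf encodes a kinetochore protein that builds up in G2. Its signal was 354 and 346 in BG -/- against 188 and 207 in BG +/-, and 363 and 382 in Ctx -/- against 396 and 404 in Ctx +/-. Both BG +/- arrays were thus low and the other 6 lay close together. The BG change was 0.78 ± 0.11 (log2 of signal + 16, SE, adjusted p = 0.0134), a ratio of 1.72 on that scale. Kif11 encodes the kinesin that pushes spindle poles apart. It measured 193 and 231 in BG -/- against 109 and 132 in BG +/-, and 228 and 222 in Ctx -/- against 229 and 217 in Ctx +/-. Again the BG +/- arrays stood below all others, and the BG change was 0.74 ± 0.14 (adjusted p = 0.0274).

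Top2a encodes the topoisomerase that untangles sister chromatids. The array values were 1188 and 1178 in BG -/- against 763 and 747 in BG +/-, and 1462 and 1378 in Ctx -/- against 1221 and 1361 in Ctx +/-. The BG groups did not overlap and differed by 0.64 ± 0.12 (adjusted p = 0.0243). Bub1 encodes a kinase of the spindle checkpoint. It gave 286 and 283 in BG -/- against 196 and 199.6 in BG +/-, and 388 and 414 in Ctx -/- against 315 and 337 in Ctx +/-. Here the BG -/- arrays lay between the BG +/- and the Ctx arrays, and the BG change was 0.49 ± 0.11 (adjusted p = 0.0425).

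The M genes that fell encode the mitotic kinase CDK1 and CDC20, the activator of the ubiquitin ligase that ends mitosis. Cdk1 measured 787 and 752 in BG -/- against 1445 and 1384 in BG +/-, and 801 and 986 in Ctx -/- against 889 and 977 in Ctx +/-. The BG +/- arrays were above all others, and BG -/- lay just under the Ctx range. This was the largest change of the 41 genes in BG by size, -0.87 ± 0.14 (adjusted p = 0.0171), a ratio of 0.549. Cdc20 measured 1054 and 1063 in BG -/- against 1538 and 1815 in BG +/-, and 1396 and 1383 in Ctx -/- against 1124 and 1437 in Ctx +/-. The BG groups were apart, and the change was -0.65 ± 0.16 (adjusted p = 0.0491).

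The genes of the S phase group that fell act at origin licensing, the step that loads the helicase. Cdt1, the loading factor, gave 361 and 381 in BG -/- against 579 and 614 in BG +/-, and 444 and 409 in Ctx -/- against 419.6 and 462 in Ctx +/-. The change in BG was -0.66 ± 0.12 (adjusted p = 0.0236), with all 6 other arrays below both BG +/- arrays. Mcm5, a subunit of the helicase, measured 1055 and 1063 in BG -/- against 1538 and 1592 in BG +/-, and 869.9 and 926 in Ctx -/- against 1232 and 1048 in Ctx +/-. Its BG change was -0.56 ± 0.13 (adjusted p = 0.0423), and BG +/- was again the highest group.

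**Figure D2:**
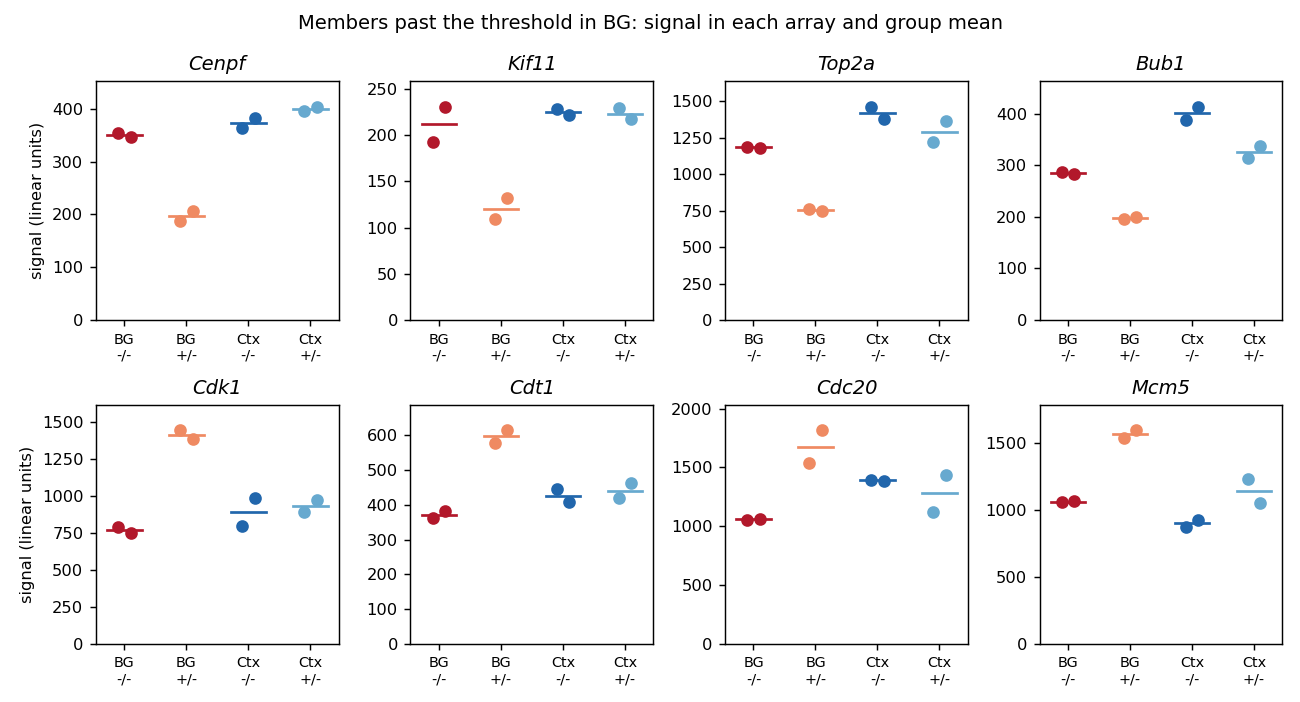
Signal on a linear axis from 0 (points, 1 per array; bars, group means of n = 2) of the 8 genes that passed the test in BG, in BG -/-, BG +/-, Ctx -/- and Ctx +/-. In the upper row (Cenpf, Kif11, Top2a, Bub1) BG +/- is the lowest group and in the lower row (Cdk1, Cdt1, Cdc20, Mcm5) the highest, while the Ctx genotypes lie close together for most genes.

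Expression of these genes through the cycle is set in part by promoter elements. E2F sites serve G1/S genes, while the cell cycle homology region (CHR), often near CCAAT boxes, serves G2/M genes bound by the DREAM and MMB complexes. Promoter windows of RefSeq (GRCm38.p6, 250 bases before to 50 after the start, 300 bases) were at hand for 33 of the 42 genes. They are shown for 2 M genes that fell, 2 M genes that rose and 1 S gene that fell, 5′ to 3′ on the gene's strand, so that the elements of genes that moved oppositely can be set side by side. Capitals mark matches, on either strand, to an E2F motif, the CHR or CCAAT. The E2F motif was searched as TTCCCGC and also in the forms TTCGCGC, further as TTGCCGC and finally as TTGGCGC, and the CHR as TTTGAA or as its form TTCGAA.
Cdk1, chr10:69352863-69353162, minus strand: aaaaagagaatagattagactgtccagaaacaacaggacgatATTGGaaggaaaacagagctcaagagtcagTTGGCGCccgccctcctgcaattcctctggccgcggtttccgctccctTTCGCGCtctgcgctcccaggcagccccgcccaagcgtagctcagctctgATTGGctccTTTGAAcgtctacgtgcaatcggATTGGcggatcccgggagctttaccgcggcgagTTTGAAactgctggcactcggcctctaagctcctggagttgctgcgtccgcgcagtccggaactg
Cdc20, chr4:118437294-118437593, minus strand: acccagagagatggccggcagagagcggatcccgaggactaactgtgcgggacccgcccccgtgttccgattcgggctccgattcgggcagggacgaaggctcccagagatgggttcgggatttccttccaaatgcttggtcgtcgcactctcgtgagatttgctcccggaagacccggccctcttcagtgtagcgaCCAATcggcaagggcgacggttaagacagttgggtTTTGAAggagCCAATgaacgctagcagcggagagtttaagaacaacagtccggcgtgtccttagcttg
Cenpf, chr1:189688037-189688336, minus strand: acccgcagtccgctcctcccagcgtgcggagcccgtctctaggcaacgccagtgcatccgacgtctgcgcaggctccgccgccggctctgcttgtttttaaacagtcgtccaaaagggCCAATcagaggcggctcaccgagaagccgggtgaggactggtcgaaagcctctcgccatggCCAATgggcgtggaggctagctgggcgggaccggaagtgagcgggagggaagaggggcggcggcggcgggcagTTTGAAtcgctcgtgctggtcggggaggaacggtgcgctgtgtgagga
Top2a, chr11:99024140-99024439, minus strand: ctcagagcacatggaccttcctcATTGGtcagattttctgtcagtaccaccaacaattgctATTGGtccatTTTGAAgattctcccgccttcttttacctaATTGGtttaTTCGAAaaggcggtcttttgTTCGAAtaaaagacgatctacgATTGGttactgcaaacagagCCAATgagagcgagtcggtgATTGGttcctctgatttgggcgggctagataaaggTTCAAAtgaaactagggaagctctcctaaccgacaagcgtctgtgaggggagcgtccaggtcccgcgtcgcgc
Cdt1, chr8:122567765-122568064, plus strand: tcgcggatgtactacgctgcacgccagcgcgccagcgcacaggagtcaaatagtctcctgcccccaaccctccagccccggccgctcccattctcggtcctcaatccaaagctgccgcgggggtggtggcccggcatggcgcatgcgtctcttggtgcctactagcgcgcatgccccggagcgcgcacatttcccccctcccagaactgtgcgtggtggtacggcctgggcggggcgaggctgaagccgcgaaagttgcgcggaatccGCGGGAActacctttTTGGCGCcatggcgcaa
Cdk1 held a CHR that began 15 bases before the start and another at 71, with 3 CCAAT boxes and 2 E2F motifs upstream. Cdc20 had 1 CHR at 18 bases before the start, with CCAAT boxes at 53 and 8. In Cenpf the CHR lay just after the start, with CCAAT boxes at 132 and 71 bases before it. Top2a held 4 places with a CHR and 6 CCAAT boxes, and Cdt1 held 2 E2F motifs, both past the start, and neither of the other elements.

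The share of genes with each motif is given by phase, as a description with no test. A CHR was found in 11 of 13 M genes with a window (84.6%), 3 of 12 S genes (25%) and 0 of 6 G1 genes, against 21.7% of 27025 genes with a window. An E2F motif was found in 8 of 12 S genes (66.7%), 3 of 13 M genes (23.1%) and 1 of 6 G1 genes (16.7%), against 10.9% of all. A CCAAT box was found in all 13 M genes, 9 of 12 S genes (75%) and 2 of 6 G1 genes (33.3%), against 41.1% of all. All 4 M genes that rose and both M genes that fell held a CHR and a CCAAT box, and an E2F motif was found in Cdk1 alone of the 6. Both S genes that fell, Cdt1 and Mcm5, held E2F motifs. Of the 2 inhibitors with a window, 1 held a CCAAT box and neither of them another motif. TTCGAA reads the same on both strands, so it was counted once a place. The median GC content of the windows was 66.8% in G1, 57.5% in S and 57.7% in M genes, against 52.8% over all. The shares of motifs were not adjusted for it. A match is a run of letters in this window, and no binding was measured.

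**Figure D3:**
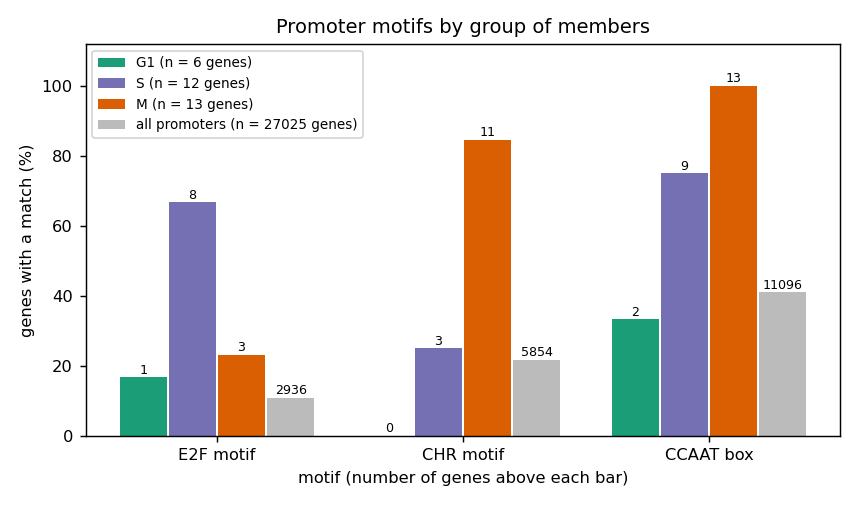
Share of G1 (n = 6), S (n = 12) and M genes (n = 13) and of all genes with a promoter window (n = 27025) that held an E2F motif, a CHR or a CCAAT box, in percent, with the number of genes above each bar. The CHR was most frequent in M genes (84.6%) and the E2F motif in S genes (66.7%).

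In BG 30 of the 41 genes were below 0, against 7930 of all 13627 genes tested. The median change of the 41 was -0.30, against -0.08 over all genes tested. The median was -0.36 in G1 genes, -0.26 in S genes, -0.15 in M genes and -0.25 in the inhibitors. The M genes spread the most, with 7 above 0 and 8 below over a range of -0.87 to 0.78. Both BG -/- arrays lay above both BG +/- arrays for 8 genes, against 23.8% of all genes tested, and below them for 23, against 37.0% of all. The 8 higher ones were 7 M genes and Rrm1. The 23 lower ones were 6 G1, 9 S and 6 M genes and 2 inhibitors.

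Among G1 genes in BG, Cdk4, the kinase partner of the D-type cyclins, came closest to the threshold. It measured 1545 and 1507 in BG -/- against 2258 and 2081 in BG +/-, and 2223 and 2244 in Ctx -/- against 2049 and 2368 in Ctx +/-. Here BG -/- was the group that stood apart, with a change of -0.50 ± 0.13 (adjusted p = 0.0542). The other 2 probe sets of Cdk4 passed, at -0.55 (adjusted p = 0.0363) and -0.67 (adjusted p = 0.0247). Ccnd2, a D-type cyclin of neural progenitors and the gene with the highest signal of the G1 group, gave 2328 and 2417 in BG -/- against 2997 and 3135 in BG +/-, and 2681 and 2689.6 in Ctx -/- against 2442 and 2937 in Ctx +/-. Its change of -0.37 ± 0.13 did not pass (adjusted p = 0.127), although the BG groups did not overlap. Cdk2, the partner of cyclin E and the G1 gene with the lowest signal, measured 61.1 and 35.4 in BG -/- against 43.2 and 42.9 in BG +/-, and 31.3 and 25.3 in Ctx -/- against 38.6 and 31 in Ctx +/-. Its BG genotypes overlapped. Ccnd3, a D-type cyclin, and Cdk6, the kinase closest to Cdk4, lay at -0.11 ± 0.15 and 0.00 ± 0.16.

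S phase genes that did not pass ranged in BG from -0.48 for Mcm2 to 0.51 for Rrm1, a subunit of ribonucleotide reductase. The helicase subunits Mcm2, Mcm3, Mcm6 and Mcm7 lay at -0.48, -0.42, -0.18 and -0.33, and Mcm4 at 0.00. Mcm7 has another probe set that passed, at -0.54 (adjusted p = 0.0368). Pcna, the sliding clamp of DNA polymerase, gave the highest signal of the S genes: 4501 and 4360.3 in BG -/- against 5472 and 5768 in BG +/-, and 4453 and 4550.3 in Ctx -/- against 4121 and 4669.5 in Ctx +/-. The BG +/- arrays were above the other 6, with a BG change of -0.34 ± 0.12 (adjusted p = 0.124). Tyms, the thymidylate synthase, gave the lowest signal, 57.5 and 57.8 in BG -/- against 41.5 and 59.7 in BG +/-, and 47.5 and 51.3 in Ctx -/- against 37.6 and 32.6 in Ctx +/-. Its BG genotypes overlapped too. Gmnn, the inhibitor of Cdt1, lay at -0.41 ± 0.13 and Cdc6, the partner of Cdt1 in licensing, at -0.07 ± 0.13, and neither passed.

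Of the M genes that did not pass in BG, Mki67, Cenpe and Tpx2 had their lowest signals in BG +/-, as did the 4 that rose. For Tpx2, a spindle assembly factor, the BG difference was 0.29 ± 0.14 (adjusted p = 0.23). Mki67, the proliferation marker Ki-67, measured 845 and 808 in BG -/- against 527 and 541 in BG +/-, and 963 and 1004 in Ctx -/- against 809 and 1157 in Ctx +/-. Cenpe, a kinetochore motor and the M gene with the lowest signal, measured 133 and 143 in BG -/- against 97.1 and 91.8 in BG +/-, and 152 and 187 in Ctx -/- against 187 and 214 in Ctx +/-. In Mki67 and Cenpe the BG +/- arrays were the lowest of the 8, with BG changes of 0.61 ± 0.18 (adjusted p = 0.077) and 0.48 ± 0.14 (adjusted p = 0.0856). On the other side stood Aurka, the Aurora A kinase of the spindle poles, at -0.50 ± 0.13 (adjusted p = 0.0596) and Ccnb2, a B-type cyclin, at -0.43 ± 0.14 (adjusted p = 0.100). Aurkb, Bub1b and Plk1, kinases of chromosome attachment and mitotic entry, lay at -0.41, -0.33 and -0.30, and the cyclin gene Ccna2 at -0.15.

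**Figure D4:**
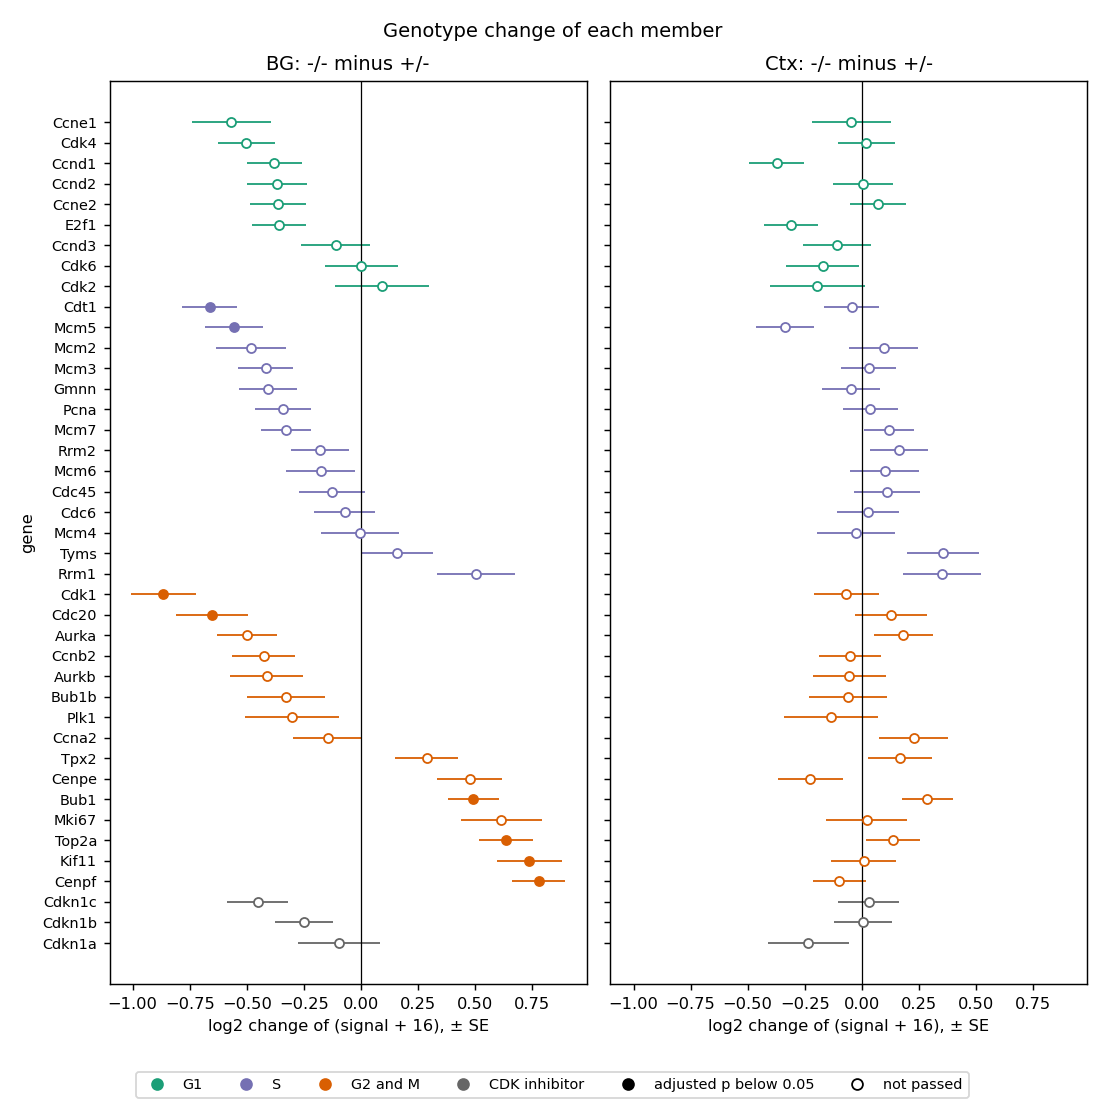
Change between genotypes (-/- minus +/-, log2 of signal + 16, ± SE) of the 41 genes in BG (left) and Ctx (right), ordered within each phase by the BG change. Filled points passed the test (adjusted p below 0.05): 8 in BG, of which 6 are M genes split to both ends of the range, and 0 in Ctx.

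Other probe sets of the same genes gave part of the calls. For the 28 genes with another probe set bright enough to be tested there were 49 others, of which 45 had the sign of the chosen one in BG and 6 passed, 2 higher and 4 lower, against 9.74% of all probe sets tested. Of the others of Cenpf, 1 was at 0.27 (adjusted p = 0.539) and 1 passed (adjusted p = 0.00644), but its signals were 28.9 and 36.1 in BG -/- against 4.78 and 2.36 in BG +/-. The BG +/- signals of that probe set lay below 16, as did 24.6% to 34.1% of all signals of an array, so its fold is not given. Kif11 had others at 0.62 (adjusted p = 0.093) and 0.54 (adjusted p = 0.0442), and Cdc20 at -0.50 (adjusted p = 0.0425) and -0.71 (adjusted p = 0.187). The other tested probe set did not pass for Top2a (0.25), Bub1 (0.13) or Cdt1 (-0.30), and neither of those of Mcm5 did (-0.26 and 0.02). Cdk1 rests on 1 probe set. Array positions of the probes within the transcripts were not used here.

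Genes of the same pathway outside the list were taken from 3 further lists of 117 genes, of which 110 were tested. Of 19 other G1 genes (pocket proteins, E2F factors, INK4 inhibitors) 0 passed in BG, with 7 at an unadjusted p below 0.05 (26.9% of all genes). Of 40 other S genes 1 rose, Orc2, a subunit of the origin recognition complex (0.62 ± 0.13, adjusted p = 0.0368), and 1 fell, Rfc4, a subunit of the clamp loader (-0.55 ± 0.13, adjusted p = 0.0427). Of 51 other M genes 4 rose, against 4.76% of all genes, and 6 fell, against 3.05%. Their medians were -0.09, -0.23 and -0.21.

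The 4 other M genes that rose were Nusap1, Ckap2, Hmmr and Kif20b, whose products act on spindle microtubules or in cytokinesis. Nusap1 gave 555 and 586 in BG -/- against 356 and 365 in BG +/-, a change of 0.64 ± 0.12 (adjusted p = 0.0239). For Ckap2, Hmmr and Kif20b the changes were 0.74, 0.71 and 0.85. Among those that fell, the 4 with the smallest p were Espl1, the separase that cuts cohesin (-0.72 ± 0.13, adjusted p = 0.0217), Ube2c, the ubiquitin-conjugating partner of CDC20's ligase (-0.54 ± 0.11, adjusted p = 0.0298), Cdca3 (-0.68) and the condensin subunit Ncapd2 (-0.68). Ube2c gave 788 and 760.1 in BG -/- against 1126 and 1139.8 in BG +/-, so it moved the same way as Cdc20.

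The genes that rose in BG had longer loci than those that fell. The genomic span, exons and introns together in the RefSeq gene table of GRCm38.p6, was 31253 to 47502 bp for the 4 genes that rose and 4443 to 18972 bp for the 4 that fell. Among the other cell cycle genes the ranges overlapped, with 17671 to 53416 bp for the 5 that rose and 2974 to 28104 bp for the 7 that fell. Over the 41 genes the Spearman correlation of span with the BG change was 0.58, and over the 15 M genes 0.65. It was 0.44 over the 110 other cell cycle genes and 0.25 over 13594 genes with a span, while against the Ctx change it was -0.01 over the 41 genes, -0.22 over the M genes, 0.13 over the other cell cycle genes and 0.05 over all genes. These are descriptions across genes measured on the same 8 arrays, which are not independent of each other, and the measure was chosen with results of these data known. Spans overlapped among the rest: Cdk6, with the longest locus, 190005 bp, had a BG difference of 0.00, and Bub1b, with 43391 bp, one of -0.33. The part of span in the BG changes was not tested, and transcript lengths were not used here.

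**Figure D5:**
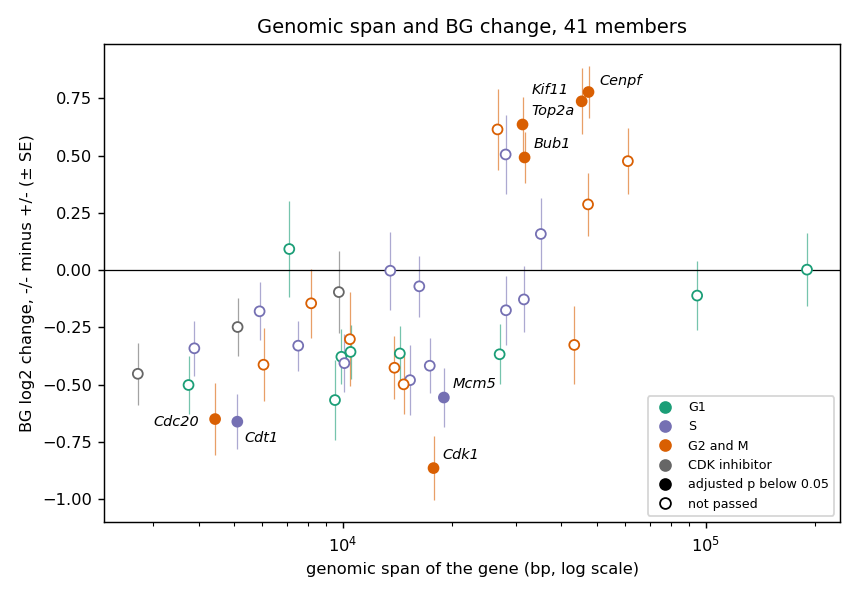
Genomic span in bp (log axis) against the BG change (-/- minus +/-, log2 of signal + 16, ± SE) of the 41 genes, coloured by phase, with filled points for those past the threshold. The 4 genes that rose span 31253 to 47502 bp and the 4 that fell 4443 to 18972 bp, with a Spearman correlation of 0.58 over all points.

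Several measures moved with the BG genotypes beside these genes. The summed signal of 11 progenitor markers was 19126 to 20132 in BG -/- against 21288 to 22055 in BG +/-, and 0 of the 11 passed, with 1 at an unadjusted p below 0.05. Of the 11, 4 were above 0 and 7 below, with a median of -0.04, beside -0.08 over all genes tested. The sum of 10 neuron markers was 24569 to 25459 in BG -/- against 22557 to 22891 in BG +/-. Of these markers 3 rose, against 4.76% of all genes: Dcx (0.93), Snap25 (0.81) and Elavl4 (0.68). The list had 7 genes above 0 and 3 below, down to -0.45, with a median of 0.07. For 5 red blood cell genes the sum was 3141 to 3265 in BG -/- against 5953 to 6288 in BG +/-, and Hbb-y, an embryonic globin, fell by 0.98 on the log2 scale. Sums of 9 endothelial markers (1086 to 1153 in BG -/- against 933 to 1036 in BG +/-) and 6 choroid plexus markers (204 to 222 in BG -/- against 148 to 165 in BG +/-) were higher in BG -/-, and those of 7 microglia markers (889 to 967 in BG -/- against 984 to 1128 in BG +/-) and 6 meninges markers (272 to 280 in BG -/- against 402 to 411 in BG +/-) lower. Among these, 1 gene each passed in the endothelial list (Rgs5, higher), the choroid plexus list (Otx2, higher) and the meninges list (Fbln1, lower), and 0 in the microglia list, with 0 at an unadjusted p below 0.05. The sum did not speak for most genes of the endothelial and choroid plexus lists: 4 endothelial genes were above 0 and 5 below with a median of -0.12, and 3 choroid plexus genes were above 0 and 3 below. The progenitor median, too, was close to that of all genes. None of these sums overlapped between the BG genotypes, and the part of other cell types in the changes of the cell cycle genes was not tested.

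Control RNAs differed as well. The spiked dap control gave 833 and 941 in BG -/- against 1369 and 1518 in BG +/-, and the 18S 5′ probe set 1126 and 450 in BG -/- against 1124 and 5265 in BG +/-. In Ctx the dap control gave 350 and 185 in -/- and 493 and 767 in +/-. The 18S probe set gave 127 and 97.0 in Ctx -/- and 182 and 190 in Ctx +/-. Both were thus lower in every Ctx array than in every BG array, so they also differed in the comparisons between regions. Ratios of 3′ to 5′ signal of actin, a measure of RNA quality, were 1.34 and 1.31 in BG -/- and 1.31 and 1.33 in BG +/-, so they overlapped. The X-inactivation RNA Xist gave 2339.9 and 2519 in BG -/- against 34.2 and 42.4 in BG +/-, and 2457 and 2363 in Ctx -/- against 62.6 and 67.5 in Ctx +/-. Genotype and sex of the tissue therefore cannot be told apart in any genotype comparison here. The parts of the control RNAs and of the library with the high 18S signal were not tested.

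In Ctx 0 of the 41 genes passed between -/- and +/- (limma), against 0.205% of all genes, and 4 did so at an unadjusted p below 0.05, against 8.60% of all genes, so the count was near the share over all genes. The smallest adjusted p was 0.382, for Ccnd1, a D-type cyclin. It gave 286 and 291 in Ctx -/- against 401 and 357 in Ctx +/-, and 469.5 and 468 in BG -/- against 591 and 639 in BG +/-. The groups did not overlap in either region, and the changes were -0.37 ± 0.12 in Ctx and -0.38 ± 0.12 in BG (adjusted p = 0.0973), neither past the threshold. The medians in Ctx were -0.11 in G1 genes, 0.07 in S genes and 0.01 in M genes, beside -0.03 over all genes. Arrays did not overlap for 9 genes higher in Ctx -/- (15.9% of all genes) and 5 lower (23.4% of all genes). The summed signal of 6 choroid plexus markers was 44.8 to 101 in Ctx -/- against 12134 to 13998 in Ctx +/-, mostly Ttr, and 2 of the 6 fell in Ctx -/-. The part of choroid plexus in this comparison, and in BG against Ctx in +/-, was not tested.

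Whether the genotype change itself differed between regions was tested with the interaction, the BG change minus the Ctx change. None of the 41 genes passed (0, limma, against 0.338% of all genes, with 14 at an unadjusted p below 0.05 against 15.3% of all genes), so the calls in BG are not shown to be particular to BG. The smallest adjusted p was that of Cenpf, whose BG change exceeded its Ctx change by 0.88 ± 0.16 (adjusted p = 0.0742). For Cdk1 the difference was -0.80 ± 0.20 (adjusted p = 0.124), for Cdc20 -0.78 ± 0.22 (adjusted p = 0.157) and for Kif11 0.73 ± 0.20 (adjusted p = 0.15). Bub1 and Mcm5 had smaller differences, 0.20 ± 0.16 and -0.22 ± 0.18. Medians were -0.05 in G1 genes, -0.31 in S genes and -0.17 in M genes, beside -0.02 over all genes.

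In the +/- tissue 16 of the 41 genes differed between BG and Ctx, against 24.8% of all genes. In BG +/- 9 were higher, against 14.0% of all genes, and 7 lower, against 10.7%. The higher ones were 4 G1 genes (Ccnd1, Ccne1, Ccne2, E2f1), 3 S genes (Rrm2, Mcm5, Cdt1), Cdk1 and Cdkn1a. The lower ones were 6 M genes (Top2a, Mki67, Cenpf, Bub1, Kif11, Cenpe) and Cdkn1c. This comparison uses the same BG +/- arrays as the genotype comparison in BG, so the calls that recur are not independent of it.

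The G1 genes that were higher in BG +/- were 2 E-type cyclins, the factor E2f1 and the D-type cyclin Ccnd1. Ccne2, an E-type cyclin, measured 246 and 264 in BG +/- against 175 and 154 in Ctx +/-, with 188 and 201 in BG -/- and 175 and 171 in Ctx -/-. The BG +/- arrays were the highest, and the difference was 0.59 ± 0.12 (adjusted p = 0.0167). Ccne1, the other E-type cyclin, measured 145 and 183 in BG +/- against 116 and 84.9 in Ctx +/-, with 103 and 106 in BG -/- and 98.2 and 93.5 in Ctx -/-, a difference of 0.63 ± 0.17 (adjusted p = 0.0407). E2f1, the transcription factor, measured 145 and 137 in BG +/- against 97.6 and 105 in Ctx +/-, with 111 and 102 in BG -/- and 75.7 and 81.5 in Ctx -/-. It differed by 0.42 ± 0.12 (adjusted p = 0.0444), and its BG -/- arrays lay nearer to Ctx +/-. For Ccnd1 the difference was 0.68 ± 0.12 (adjusted p = 0.00991), and BG was above Ctx in -/- too, by 0.67 ± 0.12 (adjusted p = 0.0135). Rrm2, the other subunit of ribonucleotide reductase, measured 1630.4 and 1903 in BG +/- against 1203 and 1279 in Ctx +/-, with 1567 and 1539 in BG -/- and 1427 and 1356 in Ctx -/-. On this probe set all BG arrays were above all Ctx arrays, and the +/- difference was 0.50 ± 0.13 (adjusted p = 0.0325). Of its other probe sets 1 passed (0.53, adjusted p = 0.0207) and 1 did not (0.04, adjusted p = 0.882). The latter gave 786 and 868 in Ctx -/- against 792 and 662 in BG -/-. Other tested probe sets of Ccne1 (0.31), E2f1 (0.15), Cdt1 (0.13) and Mcm5 (0.13 and 0.78) did not pass in +/-. Those of Ccnd1 passed (0.86 and 0.58).

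The 6 M genes that were lower in BG +/- than in Ctx +/- include the 4 that were lower in BG +/- than in BG -/-. Against Ctx +/-, Cenpf differed by -0.96 ± 0.11 (adjusted p = 0.00258), Cenpe by -0.97 ± 0.14 (adjusted p = 0.00532), Mki67 by -0.84 ± 0.18 (adjusted p = 0.0175), Kif11 by -0.81 ± 0.14 (adjusted p = 0.00971) and Top2a by -0.76 ± 0.12 (adjusted p = 0.00625). In -/- tissue the same differences were -0.09 for Cenpf, -0.27 for Cenpe, -0.25 for Mki67, -0.08 for Kif11 and -0.26 for Top2a, and none of these passed. Bub1 was lower in BG in both genotypes, by -0.68 ± 0.11 in +/- (adjusted p = 0.00811) and by -0.47 ± 0.11 in -/- (adjusted p = 0.034). In +/- the other tested probe sets of Cenpe (-0.43), Kif11 (-0.34 and -0.30), Top2a (-0.11) and Bub1 (-0.60) did not pass. Of those of Cenpf 1 passed, with BG +/- signals below 16, and 1 did not (-0.34). Mki67 rests on 1 probe set. How far the regional difference itself differs between the genotypes is the interaction given above, in which 0 of the 41 genes passed. Both BG +/- arrays lay below the other 6 arrays for 8 of the 41 genes, against 12.2% of all genes: Rrm1 and the M genes Cenpf, Kif11, Top2a, Bub1, Mki67, Cenpe and Tpx2. They lay above the other 6 for 13, against 20.3% of all genes: 5 of G1, 6 of S and the M genes Cdk1 and Cdc20.

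In the -/- tissue 8 of the 41 genes differed between BG and Ctx, against 18.7% of all genes. Ccnd1 and Cdkn1a were higher in BG -/- (2 genes, against 11.4% of all genes), and Cdk4, Mcm3, Mcm7, Bub1, Aurka and Cdkn1c were lower (6 genes, against 7.25%). On the chosen probe sets all 15 M genes had a change below 0, as did 6055 of all 13627 genes. These M changes ran from -0.54 to -0.08 with a median of -0.25, beside 0.06 over all genes. Other tested probe sets of M genes lay on both sides of 0, as with Cenpe (0.80, adjusted p = 0.0812) and Bub1b (-0.43, adjusted p = 0.0642). Of the 51 other M genes 31 were below 0 and 20 above. Mcm7 measured 2225 and 2251 in BG -/- against 3167 and 3034 in Ctx -/-, with 2859 and 2777 in BG +/- and 2859 and 2852 in Ctx +/-, so that BG -/- was the lowest group. The difference was -0.47 ± 0.11 (adjusted p = 0.0316). Mcm3 measured 348 and 328 in BG -/- against 515 and 466 in Ctx -/-, with 442 and 472 in BG +/- and 473 and 486 in Ctx +/-. It differed by -0.52 ± 0.12 (adjusted p = 0.0303), Cdk4 by -0.54 ± 0.13 (adjusted p = 0.0302) and Bub1 by -0.47 ± 0.11 (adjusted p = 0.034). The other probe set of Bub1 gave 0.05 (adjusted p = 0.887). Aurka measured 232 and 229.6 in BG -/- against 335 and 326 in Ctx -/-, with 313 and 353 in BG +/- and 268 and 312 in Ctx +/-, a difference of -0.49 ± 0.13 (adjusted p = 0.0456).

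Of the CDK inhibitors 2 of 3 differed between regions in both genotypes, and none passed between genotypes in either region. Cdkn1a encodes p21, a target of p53. It measured 173 and 159 in BG -/- against 80.5 and 52.5 in Ctx -/-, and 187 and 170.0 in BG +/- against 78 and 81.3 in Ctx +/-. BG was above Ctx in every array, by 1.16 ± 0.18 in -/- (adjusted p = 0.00815) and 1.02 ± 0.18 in +/- (adjusted p = 0.00944). Cdkn1c, which encodes p57 and is used by cells leaving the cycle, was lower in BG. It measured 245 and 284 in BG -/- against 581 and 619 in Ctx -/-, and 393 and 343 in BG +/- against 574 and 601 in Ctx +/-. BG was below Ctx in every array, with differences of -1.14 ± 0.13 in -/- (adjusted p = 0.00306) and -0.65 ± 0.13 in +/- (adjusted p = 0.0161), and the BG genotypes differed by -0.45 ± 0.13 (adjusted p = 0.0826). Cdkn1b, which encodes p27, gave the highest signal of the 3, 617 and 591 in BG -/- against 709.6 and 732 in BG +/-, and 775 and 898 in Ctx -/- against 863 and 799 in Ctx +/-. Its BG genotypes did not overlap, with a change of -0.25 ± 0.13 that did not pass (adjusted p = 0.255).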

How the data were processed

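RNA of basal ganglia and cortex was measured on 8 oligonucleotide arrays in 4 groups of 2, with groups and the replicate numbers 2 and 3 taken from the sample titles. The deposited table holds intensity, a linear signal for each of 45101 probe sets. The trimmed mean of each array was 150.001, so the authors' deposited intensity values had been scaled to a common level. The software is not given in the sources used here. Median signals were 37.9 to 51.5, and between 24.6% and 34.1% of an array's signals lay under 16. The number of arrays limits the precision.

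After 64 controls were left out, the platform annotation gave 1 gene symbol for 34945 probe sets, several for 932 and none for 9160. Signals were analysed as log2(signal + 16), which understates changes of low genes, without further normalization. The lowest 30% by mean log2 were left out, which kept 31526 probe sets. Means of the 4 groups were fitted in limma 3.58.1 (R 4.3.3) with lmFit and eBayes, with 4 residual and 2.76 prior degrees of freedom. For each of 5 comparisons the moderated two-sided p-values received a Benjamini-Hochberg adjustment over all probe sets tested, and those below 0.05 passed. The fit was also run on simulated data with independent noise. That run checked only the mean error of added changes, so it does not bear on how sure the calls are. Levels are not compared between probe sets, except to name the highest and lowest signal of a group of genes as probe set values.

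Genes of the list given with all arrays are those past the threshold in any comparison and those with the highest and lowest signal of their phase. Of other pathway genes, up to 4 a list and direction with the smallest p in BG are named. Array values, of BG only, are given for Nusap1 and Ube2c among them. The members, lists and tests were chosen with earlier results of these data known. Promoter windows and gene spans come from RefSeq tables of GRCm38.p6, matched by symbol. Alternatives were other scalings, offsets, filters, probe sets and fits, and leaving out each array.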

Additional observations from a re-analysis of the deposited data

How the results depend on the processing

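In BG, the count of 8 cell cycle genes past the threshold became 12 (3 higher, 9 lower) with each array centred on its median, 8 with quantile normalization, 6 with an offset of 1 and 9 with the mean of a gene's probe sets. It became 19 with an offset of 64, 4 with no filter, 18 with the lowest 50% left out, 23 with a trend in the prior spread, 1 with only the 4 arrays of the comparison and 3 of 28 with the next probe set. Leaving out 1 array gave 0 to 11. Over the other settings the 8 genes gave 87 values, of which 58 stayed past the threshold, 29 did not and 0 changed sign. The medians in BG stayed below 0 in G1, S and M genes under the 6 scalings, offsets and filters. In Ctx the count was 0 under all settings, leave-one-out included (0 to 0). For the difference between regions it was 2 with an offset of 64, 1 with the lowest 50% left out, 8 with a trend and 0 otherwise (leave-one-out 0 to 0). For BG against Ctx in +/- the count of 16 became 5 with the next probe set and 5 with only the 4 arrays, and 6 to 13 without 1 array. It was 6 without either BG +/- array and 8 without Ctx +/- replicate 3. In -/- the count of 8 became 3 with no filter, 3 with the next probe set and 1 to 8 without 1 array: 1 without BG -/- replicate 2, 2 without BG -/- replicate 3 or either Ctx -/- array, and 5 without either BG +/- array. Only Bub1 there changed sign, to 0.052 (adjusted p = 0.887) with its next probe set. The cause of these changes was not tested, except that fewer arrays or genes entered some of them.

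Arrays of the same replicate number showed no shared shift over the probe sets tested: changes between replicates 3 and 2 correlated at -0.03 to 0.02 between groups. Whether such arrays came from the same animal or batch cannot be read from this. With the replicate block, 5 genes passed in BG (3 higher, 2 lower), 0 in Ctx, 0 for the difference between regions, 11 for BG against Ctx in +/- and 3 in -/-.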
